A study of Mus musculus with 2 samples.

Results

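The genes described here encode the proteins of the cytosolic and the mitochondrial ribosome. They were chosen by symbol alone: Rpl or Rps followed by a number, the P-stalk genes Rplp0, Rplp1 and Rplp2, and Rpsa formed the cytosolic class, with pseudogene entries and the Rps6k kinases left out, and Mrpl or Mrps followed by a number formed the mitochondrial class. This gave 162 of the 23343 genes in the tables, 86 cytosolic (52 of the large and 34 of the small subunit) and 76 mitochondrial (47 large and 29 small). The cytosolic class also took in Rps19bp1, a binding partner of Rps19 that is not itself a ribosomal protein, and Rps4y2, the deposited symbol of an Rps4 copy that RefSeq now lists as a transcribed pseudogene under the name Rps4l.

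Cytosolic ribosomes translate the messages exported from the nucleus, and each holds about equal numbers of nearly all of its proteins. Messages for these proteins typically begin with a cytosine within a stretch of pyrimidines, the 5′ terminal oligopyrimidine (TOP) element, through which mTOR signalling and LARP1 set their translation and stability. Mitochondrial ribosomes translate the few messages encoded by mitochondrial DNA, yet their own proteins come from nuclear genes and are imported. Eosinophils are granulocytes that mature in the bone marrow under interleukin-5 and fill their granules with cationic proteins.

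Both libraries came from eosinophils of naive C57BL6J mice at homeostasis, sorted as CCR3+ SiglecF+ cells from pooled bone marrow in 2 independent sorts, here called sort 1 and sort 2. RNA from TRIzol lysates was poly(A)-selected and made into stranded dUTP libraries. All samples belong to 1 untreated group, so the comparisons available are between classes of genes within a library and between the sorts. A p-value of the exact binomial test between the sorts, described below, sets 2 libraries against counting error only. It measures neither the spread between independent sorts nor an effect of a condition. The number and the sex of the mice in each pool were not given in the sources used here.

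Table totals were 10087743 reads for sort 1 and 9264150 for sort 2. Eosinophil markers were detected for 9 of 9 genes in the tables, with a summed level of 3453 RPKM (reads scaled by transcript length and library size) in sort 1 and 4298 in sort 2, and neutrophil and precursor markers for 12 of 12 genes, at 4426 and 4198. Some genes outside the ribosomal protein classes that bear on the scaling and on the source of the cells differed widely between the sorts. Rn45s, the ribosomal RNA precursor, had 914623 reads in sort 1 and 89209 in sort 2. Xist, expressed from the inactive X chromosome, had 47487 and 5 reads, while the Y-linked Ddx3y had 0 and 745 and Kdm5d 0 and 756. This is the pattern of female cells in sort 1 and male cells in sort 2, so sort and sex cannot be told apart.

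Cytosolic ribosomal protein genes stood far above mitochondrial ones in both sorts. The median cytosolic gene had 23.9 RPKM in sort 1 and 17.7 in sort 2 (20.8 ± 4.36, mean ± SD, n = 2), and the median mitochondrial gene 1.27 and 1.31 (1.29 ± 0.0275, n = 2). The medians differed 18.8-fold in sort 1 and 13.5-fold in sort 2, a difference in median log2(RPKM + 1) of 3.45 and 3.02 (3.24 ± 0.31, n = 2). Thus the gap between the classes was several times wider than its spread between the sorts, although no test was made, since the smallest two-sided p of an exact paired test is 0.5 with 2 pairs. Over all genes in the tables the median was 0.108 RPKM in sort 1 and 0.0896 in sort 2, and both class medians lay above it. Over genes with at least 1 RPKM in both sorts the median was 4.07 and 3.97. The cytosolic median lay above this and the mitochondrial median below it, but the class medians include members under that limit. In bulk RNA such as this, fewer cells of a type and less RNA per cell cannot be told apart.

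**Figure D1:**
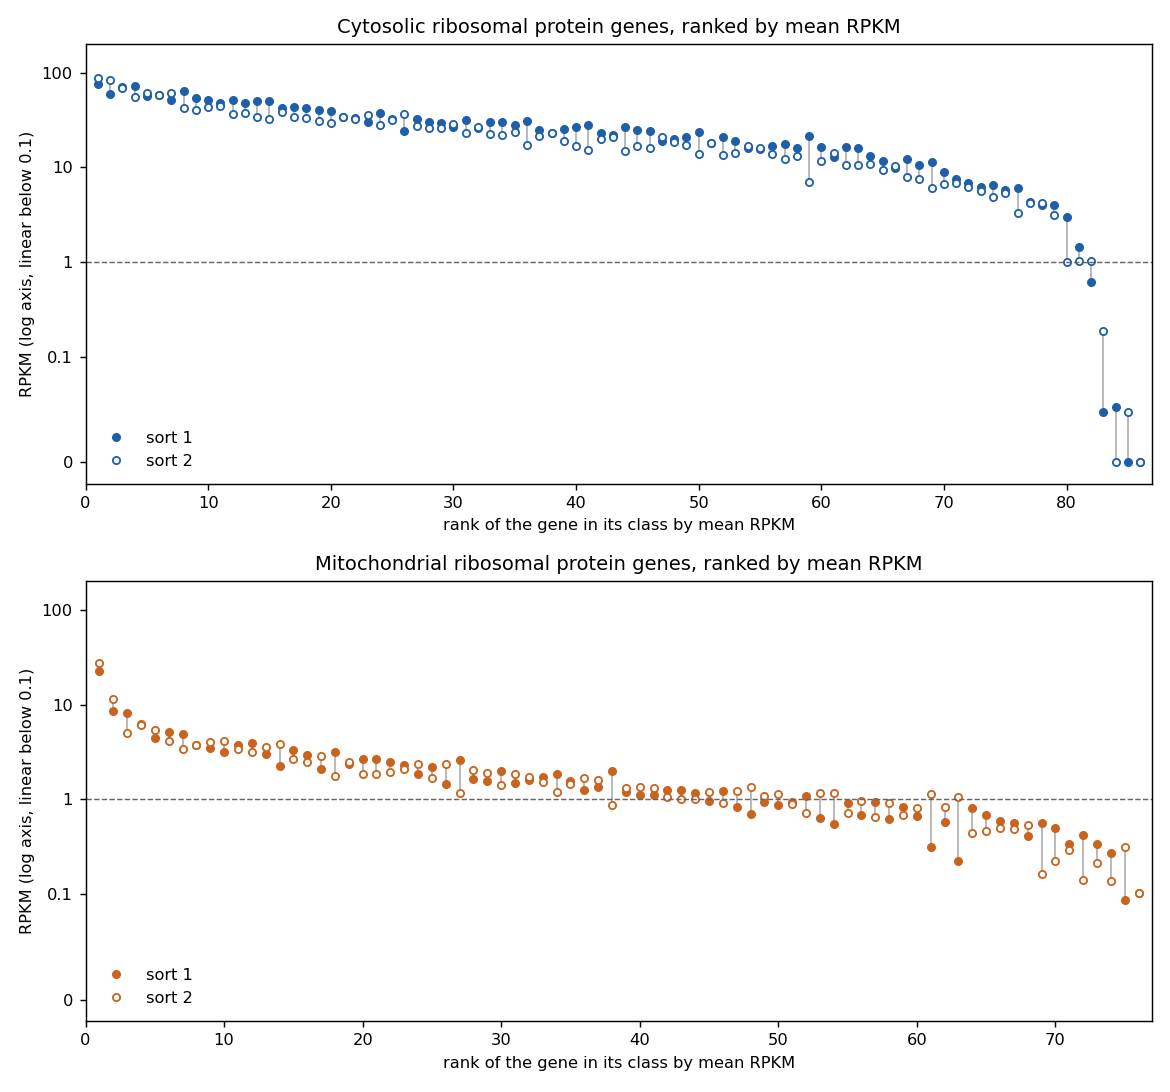
RPKM of each cytosolic (upper panel, blue) and mitochondrial (lower panel, orange) ribosomal protein gene in sort 1 (filled) and sort 2 (open), ordered from left to right by rank of mean RPKM, on an axis that is logarithmic above 0.1 and linear below it, with the dashed line at 1 RPKM. Of the cytosolic genes, 63 reach 10 RPKM in both sorts and the rest decline to 0, while mitochondrial genes fall away steeply after Mrpl33.

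At least 1 RPKM in both sorts was reached by 80 of 86 cytosolic genes (93.0%) and by 43 of 76 mitochondrial genes (56.6%), against 7048 of all 23343 genes (30.2%). At least 10 RPKM in both sorts was reached by 63 cytosolic genes and by 1 mitochondrial gene, Mrpl33. The medians lay far apart, but the ranges overlapped. Of the 86 cytosolic genes, 46 in sort 1 and 28 in sort 2 exceeded the highest mitochondrial gene, Mrpl33. The mitochondrial gene of rank 2 in each sort was exceeded by 70 and 60. No mitochondrial gene exceeded the cytosolic median in sort 1 and 1, again Mrpl33, did so in sort 2, while 5 cytosolic genes in sort 1 and 7 in sort 2 lay below the mitochondrial median. Relative to its mean, the cytosolic class as a whole spread less: the coefficient of variation of RPKM over genes was 0.702 in sort 1 and 0.813 in sort 2, against 1.37 and 1.57 in the mitochondrial class. By subunit this did not hold throughout, since the mitochondrial small subunit, which does not hold Mrpl33, had 1.06 and 0.837 and the cytosolic large subunit 0.753 and 0.899.

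As a share of all reads in the tables, cytosolic genes took 0.704% in sort 1 (95% Wilson interval 0.698% to 0.709%) and 0.664% in sort 2 (0.659% to 0.670%). Mitochondrial genes took 0.0688% (0.0672% to 0.0704%) and 0.0768% (0.0750% to 0.0786%). These intervals cover counting error only. The ratio of the shares was 10.2 in sort 1 and 8.65 in sort 2, smaller than that of the RPKM medians. Shares are sums and are not scaled by length: the ratio of the summed RPKM was 13.9 and 11.8, and the median length implied by the deposited RPKM was 1039 bases for mitochondrial and 712 for cytosolic genes. With the Rn45s reads left out of the totals, the cytosolic share was 0.774% in sort 1 and 0.671% in sort 2.

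The small subunit lay above the large one in the cytosolic class. Its median was 29.1 RPKM in sort 1 and 24.9 in sort 2, against 19.6 and 15.9 for the large subunit. Without the paralogues, Rps4y2 and Rps19bp1 the small subunit medians were 30.0 and 27.5 and the large subunit medians 22.1 and 17.1. In the mitochondrial class the order was the opposite and the gap narrow, with large subunit medians of 1.49 and 1.35 and small subunit medians of 1.27 and 1.15. Since genes are not replicates, these subunit differences were not tested.

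**Figure D2:**
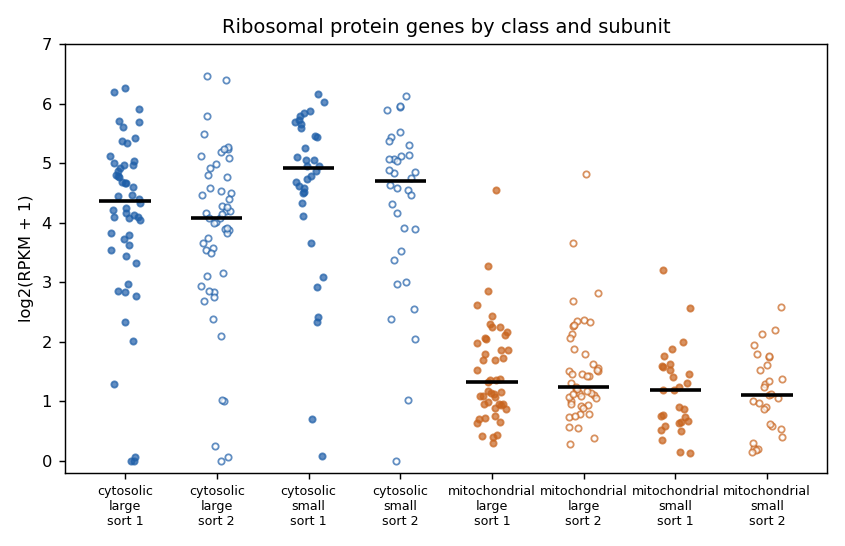
Each point is 1 gene, placed by log2(RPKM + 1) in sort 1 (filled) or sort 2 (open) and grouped by class and subunit, and the black bar is the median of the group. Both mitochondrial subunits lie below both cytosolic subunits in each sort, and the cytosolic small subunit median lies above the large subunit median in each sort.

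The most abundant cytosolic gene was Rpl4, which lines part of the tunnel through which the nascent chain leaves the ribosome. It had 75.5 RPKM in sort 1 and 86.7 in sort 2 and ranked 98th of all genes by mean RPKM. Rpl31, which sits near the mouth of the same tunnel, followed with 58.8 and 82.8 RPKM, and was higher in sort 2 (log2 ratio 0.56, counting standard error 0.04, adjusted p = 3.74e-48 by the exact binomial test described below). Rpl41, the smallest ribosomal protein, had 71.8 and 54.6 RPKM. Rps23, part of the decoding centre, had 56.3 and 60.7 RPKM.

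Several further small subunit genes were among the most abundant. Rps29 had 57.7 and 58.0 RPKM, nearly the same in both sorts, and Rps9, which lies at the entry of the messenger RNA channel, had 64.1 and 42.2. Rps27 had 54.5 and 40.5 RPKM and Rps25 had 47.2 and 44.8. The large subunit gene Rpl9 had 50.8 and 43.8 RPKM. None of the 12 highest genes of the class differed by as much as 2-fold between the sorts.

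Promoter sequences bear on the TOP element, which was searched for as a run of at least 8 C or T on the sense strand touching the 5 bases either side of the annotated start. RefSeq promoters (build GRCm38.p6, the same assembly as the mm10 of the deposited coordinates, 250 bases before to 50 after the start) were matched for 63 cytosolic and 67 mitochondrial genes whose starts lay within 1000 bases of the deposited ones. Such a run was found in 22 of 63 cytosolic promoters (34.9%), 7 of 67 mitochondrial promoters (10.4%) and 9.72% of all 32851 promoters of the table. A cytosine stood at the start itself in 33.3%, 14.9% and 16.3%. These are shares of annotated starts, which need not be the starts used in these cells, and a match is a description of the letters only. The lines below show 60 bases around the start, 40 before it and 20 from it, for the highest cytosolic genes with a run and for the members with a run that rank next, Rpl7a and Rps18, which were chosen after their values were seen. Capitals mark the run.
Rpl4 (chr9:64173347-64173406, plus strand): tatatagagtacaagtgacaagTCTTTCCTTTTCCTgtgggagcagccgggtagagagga
Rps9 (chr7:3704001-3704060, plus strand): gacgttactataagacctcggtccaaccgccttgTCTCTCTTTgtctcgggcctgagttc
Rps27 (chr3:90213629-90213688, minus strand): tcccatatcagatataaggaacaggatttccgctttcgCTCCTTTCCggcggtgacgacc
Rpl7a (chr2:26910767-26910826, plus strand): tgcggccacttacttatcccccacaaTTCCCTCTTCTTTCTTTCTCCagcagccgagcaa
Rps18 (chr17:33955646-33955705, minus strand): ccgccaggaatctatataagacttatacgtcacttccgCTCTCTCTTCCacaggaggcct

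Of the 12 highest cytosolic genes, 8 had a matched promoter and 3 of these had a run of this length. The rank next to Rpl4 was held by Rpl31, whose run of 7 fell short of the limit but spans the start, with a cytosine there. The run of Rpl4 ends before the start, where the base is not a cytosine. Of the printed genes with a run, Rps27 and Rps18 have a cytosine at the start, and Rpl4, Rps9 and Rpl7a do not. For Rpl31 and Rpl41, which had no such run, capitals mark the base at the annotated start.
Rpl31 (chr1:39367811-39367870, plus strand): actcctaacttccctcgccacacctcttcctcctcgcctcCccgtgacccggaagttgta
Rpl41 (chr10:128549149-128549208, minus strand): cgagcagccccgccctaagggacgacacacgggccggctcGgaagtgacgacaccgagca
Cytosolic genes with the run had a median of 26.7 RPKM in sort 1 and 20.6 in sort 2 (22 genes), and those without it 19.0 and 15.9 (41 genes). The ranges of these groups overlapped widely: the genes with a run went from Rpl4 down to Rps27l at 4.04 and 3.13 RPKM.

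Among other promoter letters, the ETS-type sequence CCGGAAG was the one that both classes carried often. On either strand and anywhere in the 300 bases, it was found in 24 of 63 cytosolic (38.1%) and 24 of 67 mitochondrial promoters (35.8%), against 8.86% of all promoters. The YY1-type letters AAGATGG were found in 14.3% of cytosolic, 19.4% of mitochondrial and 6.34% of all promoters, and the NRF1-type letters CGCATGC in 6.35%, 11.9% and 3.58%. TATAAAA was found at 4.76%, 5.97% and 5.48%. The comparison set holds every promoter entry, expressed or not, and was not matched for base composition. Median promoter GC content was 57% in the cytosolic and 58% in the mitochondrial class, against 52.7% over all entries. The part of composition in these shares was not tested. None of these motifs contains another, but neighbouring matches can overlap. Levels did not separate by the ETS letters: cytosolic genes with them had medians of 21.3 and 15.5 RPKM and those without 24.3 and 17.3, and mitochondrial genes with them 1.54 and 1.38 and those without 1.27 and 1.20.

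**Figure D3:**
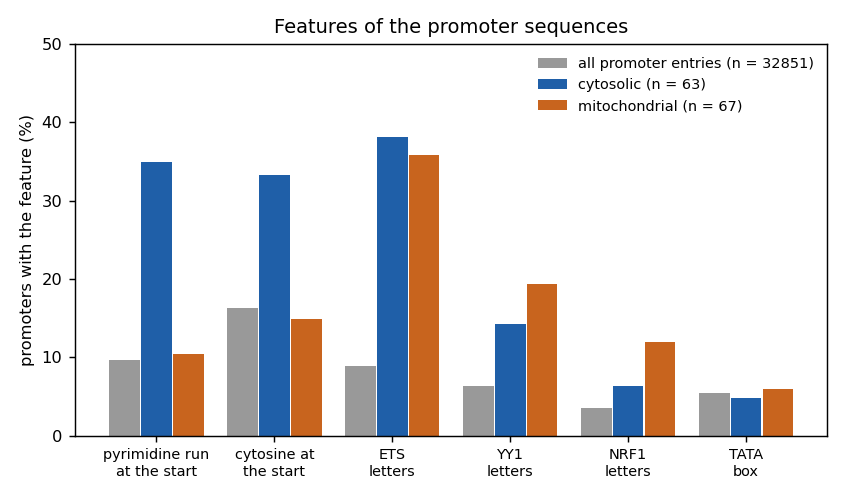
Share of promoters with each feature, in percent, for all 32851 promoters of the RefSeq table (grey), 63 cytosolic genes (blue) and 67 mitochondrial genes (orange). The pyrimidine run and the cytosine at the start stand out in the cytosolic class, the ETS letters stand above the grey bar in both classes, and the TATA box is near the background in both.

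The 3 proteins of the P stalk, which recruit elongation factors to the ribosome, had Rplp0 at 24.3 RPKM in sort 1 and 15.9 in sort 2, Rplp1 at 12.2 and 7.89, and Rplp2 at 26.9 and 16.9. All 3 were higher in sort 1, with log2 ratios of sort 2 to sort 1 of -0.54, -0.55 and -0.60 (counting standard errors 0.06, 0.15 and 0.11), at adjusted p-values of 6.64e-17, 8.69e-04 and 8.24e-08 by the exact binomial test. Each stalk carries a single P0 and several copies of P1 and P2, and the transcript level of Rplp1 was below that of Rplp0 in both sorts. Rpsa, also known as the laminin receptor precursor, had 16.3 and 10.5 RPKM and was higher in sort 1 (log2 ratio -0.57). Rps6, the substrate of the S6 kinases, had 26.4 and 28.4 RPKM and was slightly higher in sort 2 (log2 ratio 0.17, adjusted p = 0.0032, exact binomial test).

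Of the cytosolic genes, 4 lay on the X chromosome, and of the mitochondrial genes 0. Rpl10, which is among the last proteins to join the large subunit, had 47.7 RPKM in sort 1 and 37.5 in sort 2, and Rps4x had 42.8 and 33.7. Rpl36a had 16.0 and 13.2 RPKM. Rpl39, a small protein of the exit tunnel, had 30.5 and 35.3 RPKM. Between the sorts these X-linked genes went both ways by the exact binomial test. Rpl10 and Rps4x were higher in sort 1 (log2 ratio -0.28 for each, adjusted p = 3.45e-06 and 3.62e-06). Rpl39 was higher in sort 2 (log2 ratio 0.28, adjusted p = 0.00528). Rpl36a did not pass the exact binomial test (log2 ratio -0.20, adjusted p = 0.158). The median log2 ratio over all tested cytosolic genes was -0.22. The part of sex, which cannot be told apart from sort, was not tested.

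Paralogues of cytosolic ribosomal proteins were mostly far below their parent genes. Rpl3l, the heart and skeletal muscle form, had 1 read in sort 1 and 7 in sort 2 (0.0475 and 0.190 RPKM), while Rpl3 had 970 and 685 reads (17.6 and 12.4 RPKM). Rpl10l, a testis form, had 0 and 2 reads, and Rpl39l, another testis form, had 0 reads in both sorts, which allows up to 3 reads in a library by counting error. Rps4y2 had 2 and 0 reads against 1520 and 1198 for Rps4x. These 4 genes, all under 10 reads in the sorts together, were not tested.

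A second set of paralogues reached 1 RPKM in both sorts, Rpl7l1 only narrowly. Rpl36al had 12.8 RPKM in sort 1 and 14.1 in sort 2, the same range as its X-linked parent Rpl36a. Rpl22l1 had 4.04 and 4.23 RPKM, against 6.82 and 6.21 for Rpl22, the parent with which it is known to be cross-regulated. Rps27l, a p53 target, had 4.04 and 3.13 RPKM, against 54.5 and 40.5 for Rps27. Rpl7l1, a nucleolar relative of Rpl7, had 1.43 and 1.03 RPKM, against 16.1 and 16.8. None of these 4 paralogues passed the exact binomial test between the sorts. Of the 50-base words of Rpl36a and Rpl36al, 85.5% and 63.3% recur in transcripts of other annotated genes. For Rpl22l1, Rps27l and Rpl7l1 the percentages were 65.6%, 22.4% and 9.19%.

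The 6 cytosolic genes that did not reach 1 RPKM in each sort were Rpl39l, Rpl10l, Rps4y2 and Rpl3l, together with Rps19bp1 (0.625 and 1.04 RPKM) and Rpl30. Rps19bp1 and Rpl30 fell short in 1 sort only. Rpl30 was thus the 1 core protein of the ribosome below this limit, narrowly and in sort 2 only. It had 3.01 RPKM from 70 reads in sort 1 and 0.994 RPKM from 23 reads in sort 2. Of the 50-base words of Rpl30, 76.4% recur in transcripts of other annotated genes, so its level is uncertain. After Rpl30, the lowest core genes were Rps15a and Rpl15 (both named after their values were seen). Rps15a had 899 and 873 reads, more than the class median of 635 and 554, yet 4.32 and 4.19 RPKM, because the authors' values imply a transcript of 5147 bases. Rpl15 had 6.13 and 3.28 RPKM.

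Mitochondrial genes were led by Mrpl33, a small protein of the large subunit, at 22.5 RPKM in sort 1 and 27.2 in sort 2. Mrpl30 followed with 8.65 and 11.5 RPKM, and Mrps21, of the small subunit, with 8.19 and 5.02. By mean RPKM, Mrpl33 ranked 495th of all genes, while Mrpl30 ranked 1436th. Mrpl24 had 6.23 and 6.03 RPKM, Mrpl36 had 4.41 and 5.43, and Mrpl18 had 5.15 and 4.16. The others of the 12 highest, Mrps35, Mrpl43, Mrpl16, Mrpl42, Mrpl53 and Mrpl34, lay between 3.15 and 4.95 RPKM in either sort. The ETS letters, found in the promoters of Mrpl33, Mrps21, Mrpl18, Mrpl43, Mrpl53 and Mrpl34 among these, are shown in capitals for the first 3 in windows of 47 bases.
Mrpl33 (chr5:31613928-31613974, plus strand): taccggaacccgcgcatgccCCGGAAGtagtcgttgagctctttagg
Mrps21 (chr3:95871485-95871531, minus strand): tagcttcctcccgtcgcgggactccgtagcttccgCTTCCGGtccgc
Mrpl18 (chr17:12916295-12916341, minus strand): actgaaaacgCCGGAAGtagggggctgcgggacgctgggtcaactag
In Mrpl33 the letters begin 3 bases before the start, and the NRF1-type letters stand upstream of them in the same window. In Mrps21 they stand on the opposite strand and begin 18 bases after the RefSeq start, which lies upstream of the deposited one. In Mrpl18 they begin 240 bases before the start.

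At the low end of the mitochondrial class, Mrps36 had 2 reads in each sort (0.104 RPKM in both). Its product is now assigned to the 2-oxoglutarate dehydrogenase complex and not to the ribosome. Mrps6 had 3 and 10 reads, Mrps34 had 10 and 5, Mrpl23 had 8 and 7, and Mrps18b had 18 and 6. Mrpl11, Mrps5 and Mrps11 completed the 8 lowest, each under 0.6 RPKM in both sorts. For these genes counting error is large, and 33 of the 76 mitochondrial genes did not reach 1 RPKM in both sorts. Mrpl17 and Mrps25 (named after their values were seen) had many more reads than these, 304 and 356 and 165 and 201, but 1.12 and 1.31 and 0.672 and 0.819 RPKM, because the deposited values imply transcripts of 6729 and 6069 bases.

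Between the sorts, the order of the genes was largely kept. Over the 86 cytosolic genes, log2(RPKM + 1) in sort 1 and sort 2 had a Pearson r of 0.97 and a Spearman rho of 0.96, and over the 76 mitochondrial genes 0.93 and 0.89, as descriptions across genes, which are not independent replicates. Differences between the sorts were tested on the reads with an exact two-sided binomial test given library sizes scaled by TMM, with Benjamini-Hochberg adjustment over the 12347 genes with at least 10 reads in both sorts together. This test allows for counting error only, not for spread between independent sorts. Calls required 2-fold or more between the sorts together with an adjusted p under 0.05. Of the cytosolic genes, 2 of 82 tested were called, and of the mitochondrial genes 7 of 75, against 987 of 12347 genes (7.99%) in all. The mitochondrial share, 9.33%, was near that background, and the cytosolic share was 2.44%. Over the 7044 tested genes with at least 1 RPKM in both sorts, 115 (1.63%) were called, so the background depends on the level of the genes. The cytosolic share lay below the background of all genes tested but not below that of detected genes.

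Both called cytosolic genes were higher in sort 1. Rps14 (chr18:60774596-60778546), whose loss in people is tied to the anaemia of the 5q- syndrome, had 520 reads in sort 1 and 170 in sort 2 (21.5 and 7.01 RPKM, log2 ratio -1.54, counting standard error 0.13, adjusted p = 4.21e-37, exact binomial test). Rpl30 (chr15:34440508-34443225) had 70 and 23 reads (log2 ratio -1.47, counting standard error 0.33, adjusted p = 1.29e-05, exact binomial test). Of the 50-base words, 38.1% for Rps14 and 76.4% for Rpl30 recur in transcripts of other annotated genes. Rps14 stood apart from the rest of its class, in which the tested genes other than these 2 lay between log2 ratios of -0.83 and 0.75. When the spread between libraries was estimated over all genes with edgeR's exact test (common dispersion, biological coefficient of variation 0.232), 33 genes in all (0.267%) and 0 of the 162 were called. At an unadjusted p under 0.05 that test had 766 genes in all, 2 cytosolic and 3 mitochondrial. The adjusted p-values of the 9 called ribosomal protein genes under edgeR ran from 0.184 to 0.878.

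The 7 called mitochondrial genes went both ways. Mrpl47 had 8 reads in sort 1 and 38 in sort 2 (log2 ratio 2.06, counting standard error 0.51), and Mrpl55 had 10 and 36 (1.72, 0.48). Mrps22 had 27 and 58 reads and Mrps2 had 57 and 112, with log2 ratios of 1.11 and 1.01. Higher in sort 1 were Mrps11 with 24 and 7 reads, Mrps26 with 77 and 34, and Mrpl14 with 63 and 28, at log2 ratios of -1.48, -1.07 and -1.05. The adjusted p-values of these 7 genes by the exact binomial test ran from 2.38e-05 for Mrpl47 to 0.0104 for Mrps11. Of the 7 genes, 5 had fewer than 100 reads in both sorts together. With library totals in place of TMM the call for Mrpl14 was lost, and with totals without Rn45s Mrps2 was lost and Mrps5 and Mrps18b were added.

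**Figure D4:**
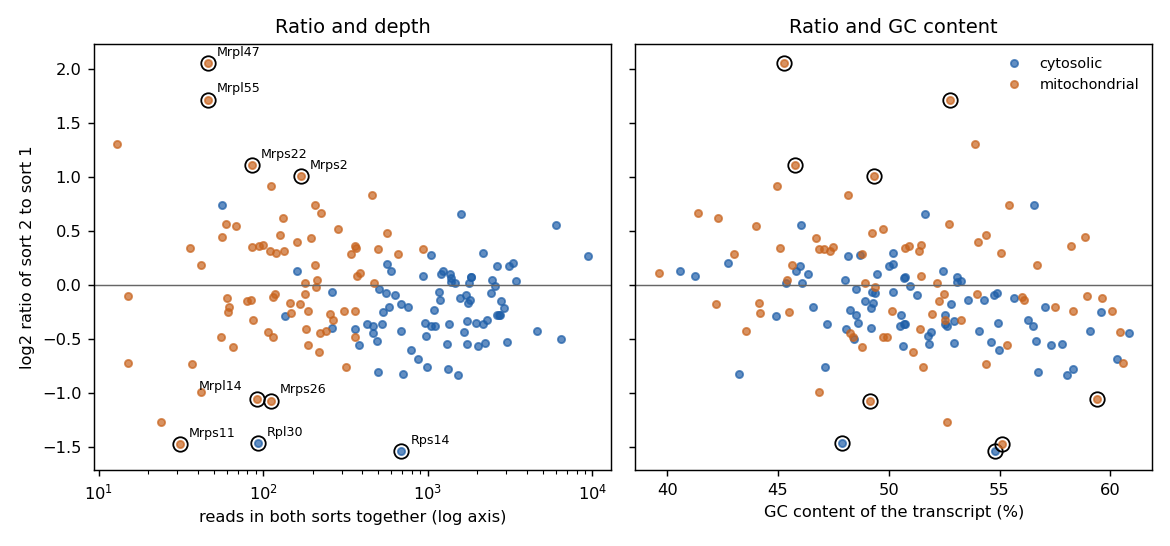
Log2 ratio of sort 2 to sort 1 for the 82 cytosolic (blue) and 75 mitochondrial (orange) genes tested, against the reads in both sorts together on a log axis (left) and against the GC content of the transcript in percent (right), with called genes circled and named. Mitochondrial ratios spread more widely where reads are few, and the 22 cytosolic genes with at least 54% GC and 100 reads all lie below 0.

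Smaller shifts beyond counting error were common and mostly of 1 sign in the cytosolic class. At an adjusted p under 0.05 and any fold, 41 of 82 cytosolic genes were higher in sort 1 and 8 in sort 2, against 21.9% and 22.5% of all genes tested. Over tested genes with at least 1 RPKM in both sorts, these shares were 25.3% and 29.4%. With more reads this test passes smaller shifts. The median cytosolic gene had 635 reads in sort 1 and 554 in sort 2, and the median detected gene 462.5 and 449. Cytosolic genes higher in sort 2 included Rpl4, Rpl31, Rps23, Rpl39, Rps6 and, named after their values were seen, Rpl12 and Rpl5. In the mitochondrial class 9 of 75 were higher in sort 1 and 16 in sort 2. The median log2 ratio was -0.22 over cytosolic genes, with 58 of 82 below 0, 0.02 over mitochondrial genes, with 37 of 75 below 0, and -0.0040 over all genes tested, with 50.3% below 0. The mitochondrial median changed sign with the scaling, to -0.05 with totals without Rn45s, and the cytosolic median stayed below 0 under each scaling tried.

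Base composition and marker genes moved with this shift. Over genes with at least 100 reads, the Spearman rho between the log2 ratio and GC content was -0.54 for all 8666 genes, -0.46 for 80 cytosolic and -0.25 for 48 mitochondrial genes, where the points share the libraries and their depth. At 54% GC or more, the median log2 ratio was -0.27 over all genes, -0.44 over 22 cytosolic genes, of which 22 were below 0, and -0.11 over 9 mitochondrial genes. From 46% to 50% GC it was 0.07 over all genes, -0.16 over 22 cytosolic genes and 0.31 over 15 mitochondrial genes. The cytosolic median ratio lay below that of all genes in each of the 4 GC bands compared, and the mitochondrial one above it in 2 and below it in 2. Both classes had a median GC content of 50.8%.

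Monocyte and macrophage markers were also higher in sort 1, 7 of 8 at an adjusted p under 0.05 (exact binomial test). Their summed levels were 245 RPKM in sort 1 and 175 in sort 2. For this and the counts that follow, 21.9% of all genes tested were higher in sort 1 and 22.5% in sort 2. Over tested genes with at least 1 RPKM in both sorts, the shares were 25.3% and 29.4%. B and plasma cell markers summed to 9.38 and 6.34 RPKM, with 3 of 8 tested genes higher in sort 1. Cycling genes had 6 of 12 genes higher in sort 2 and 1 higher in sort 1 (60.3 and 87.3 RPKM summed), and 7 of 9 eosinophil markers were higher in sort 2 (3453 and 4298 RPKM summed). Erythroid markers summed to 5.73 and 9.06 RPKM, with 4 of 10 tested genes higher in sort 2, among them Hba-a1 and Hba-a2, listed with the same counts. Neutrophil and precursor markers went both ways, with 5 of 12 higher in each sort. Ngp, Ltf, Camp, Lcn2 and S100a9 had log2 ratios of -0.68, -0.75, -0.60, -0.61 and -0.23. Mpo, Elane, Ctsg, Retnlg and S100a8 had 0.17, 0.46, 0.49, 0.14 and 0.08. Mmp8 (-0.01) and Prtn3 (0.02) passed in neither direction. All of these but Ngp, S100a8, S100a9 and Retnlg were named after their values were seen. No marker of these lists was at 0 in both sorts. The part of GC content, of Rn45s, of sex and of these cell types in the cytosolic shift was not tested.

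Sequence shared with other genes set the classes apart. Many processed pseudogenes descend from cytosolic ribosomal protein messages. Of the 50-base words of each transcript (GENCODE M21), a median of 53.5% over the cytosolic genes recurred in annotated transcripts of other genes on either strand, against 3.56% over the mitochondrial genes, and 48 of 86 cytosolic and 5 of 76 mitochondrial genes had more than 50% such words. How reads matching several places were counted was not given in the sources used here. Among genes outside the classes, the α-globin genes Hba-a1 and Hba-a2, which are near-identical, were listed with the same counts, 14 in sort 1 and 32 in sort 2. Levels of single cytosolic genes are therefore uncertain, and Rps27 (98.6% shared), Rpl9 (93.3%) and Rpl10 (92.1%) are examples among the abundant ones, whereas Rpl4 (16.5%) and Rps3 (2.96%, named after its values were seen) at 50.7 and 34.2 RPKM have little shared sequence. Across genes, mean RPKM and the shared percentage had a Spearman rho of 0.21 in the cytosolic and -0.09 in the mitochondrial class.

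**Figure D5:**
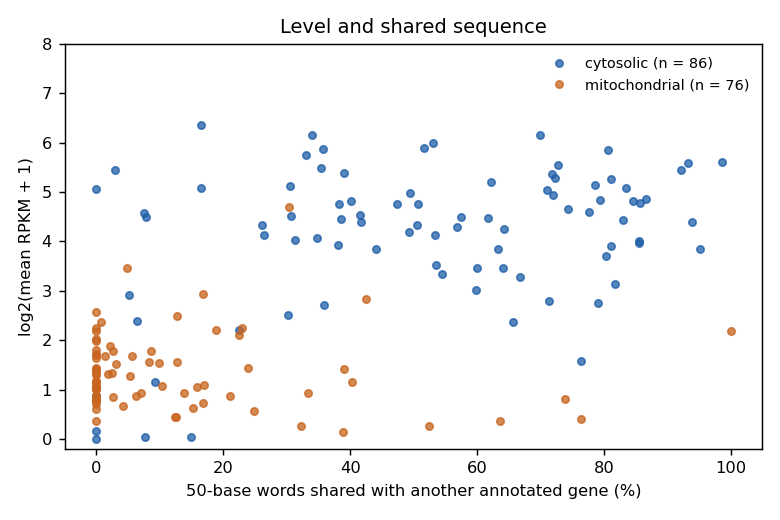
Log2(mean RPKM + 1) of each gene against the percentage of its transcript's 50-base words found in transcripts of other annotated genes, for 86 cytosolic (blue) and 76 mitochondrial (orange) genes. Cytosolic genes are spread over the whole range of shared sequence at high levels, and mitochondrial genes cluster at 0, where 30 of 76 lie.

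The 6 processed pseudogenes that the tables list for ribosomal proteins, which were left out of the classes, had 71 reads in sort 1 and 85 in sort 2 together. Rps15a-ps6 had most of these, 52 and 57. Proteins of the cytosolic ribosome whose symbols fall outside the rule lay in the range of the class: Fau, which encodes the small subunit protein eS30 as a fusion, had 26.4 and 22.4 RPKM, and Gnb2l1, also called Rack1, had 23.3 and 18.5. Both were higher in sort 1 (log2 ratio -0.26 for each), with adjusted p-values of 0.00418 and 1.33e-04 by the exact binomial test.

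Other proteins of the mitochondrial ribosome were likewise in the range of their class. Aurkaip1 had 5.86 and 5.11 RPKM, Ptcd3 2.06 and 2.39, Ict1 2.12 and 1.98, and Chchd1 1.49 and 1.53. Of the 6 genes on this list, 5 had at least 1 RPKM in both sorts and 0 passed the exact binomial test at any fold. In both compartments, then, the genes outside the symbol rule sat at the level of the class to which their proteins belong.

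Translation factors whose messages also carry TOP elements were near the level of the cytosolic class. All 12 were detected, with median levels of 19.1 RPKM in sort 1 and 16.4 in sort 2. The poly(A)-binding protein gene Pabpc1 had 102 and 94.99 RPKM, and the elongation factor genes Eef1a1 and Eef2 had 92.7 and 76.0 and 70.01 and 53.8. Tpt1, which encodes the translationally controlled tumour protein, had 63.3 and 54.1. Of these 12 genes, 8 were higher in sort 1 and 1 in sort 2 (adjusted p under 0.05, any fold, exact binomial test). Over all genes tested the shares were 21.9% and 22.5%, and over those with at least 1 RPKM in both sorts 25.3% and 29.4%. At 2-fold, 0 of the 12 genes were called.

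A list of translation and growth regulators, including those of mTOR signalling to TOP messages, was detected in full, 10 of 10 genes. Eif4ebp2, a repressor of cap-dependent translation, was highest at 56.2 and 46.5 RPKM, followed by Myc at 6.46 and 6.499, Eif4ebp1 at 6.62 and 6.10, and the S6 kinase gene Rps6kb1 at 3.40 and 4.43. In this list 2 genes were higher in sort 1 and 2 in sort 2, near the 21.9% and 22.5% of all genes tested. The median was 3.43 RPKM in sort 1 and 3.74 in sort 2, below the cytosolic ribosomal protein median.

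Ribosome biogenesis genes had lower transcript levels than the cytosolic ribosomal protein genes. At least 1 RPKM in both sorts was seen for 21 of 31 genes, and the list's medians were 2.28 and 2.02 RPKM. Npm1 and Ncl, abundant nucleolar proteins, had 37.5 and 52.8 RPKM and 14.9 and 19.2, Polr1d had 6.18 and 10.002, and Bms1 had 5.63 and 5.40. At any fold, 8 were higher in sort 2, among them Npm1, Ncl and Polr1d, and 5 in sort 1, near the 22.5% and 21.9% of all genes tested. The called genes, 2 of 31 against 7.99% of all, were Nhp2, a component of the pseudouridylation complex, with 74 and 33 reads, and Nob1, the nuclease of final 18S maturation, with 70 and 24, both higher in sort 1.

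Genes that serve the mitochondrial ribosome were low, as its protein genes were. Of 11 mitochondrial translation factors 5 were detected, and the list's medians were 1.14 and 1.02 RPKM. The highest was the elongation factor gene Gfm1 at 2.84 and 2.63 RPKM, with Mtif2 at 2.25 and 2.11, Gfm2 at 1.96 and 1.96, and Mtrf1l at 1.37 and 1.71. Tufm, the mitochondrial EF-Tu, was called, with 88 reads in sort 1 and 29 in sort 2 (log2 ratio -1.48). Assembly genes numbered 18, of which 6 were detected, with medians of 0.723 and 0.864 RPKM, below the 1.27 and 1.31 of the ribosomal protein class. They were led by Rbfa at 8.10 and 5.02 RPKM, Malsu1 at 3.90 and 3.04, Mterfd1 at 2.02 and 3.47, and Mpv17l2 at 2.04 and 1.19. Calls numbered 1 of 11 translation factors and 3 of 18 assembly genes, against 7.99% of all genes tested: of the latter, Mtg1 was higher in sort 1, with 68 and 31 reads, and Noa1 and Fastkd2 in sort 2, with 56 and 123 and 11 and 28.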

How the data were processed

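The authors deposited 1 table per library with a raw read count and an RPKM value for each RefSeq transcript group, per the file headers. Alignment used STAR 2.4.0c and the mm10 build, per the submitters' processing notes, and libraries were stranded, per the labels' protocols; the counting program, its strand setting, filters and its treatment of multiply matching reads were not given in the sources used here. Deposited RPKM values imply a library size of which the counts of the tables are 25.0% and 22.9%; what it counts was not given.

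Counts and RPKM were summed per gene symbol (26099 rows, 23343 genes, 9 members with several rows). Levels are RPKM, and log2 levels use a pseudocount of 1. The sorts were compared as described with the results, with TMM factors from edgeR 4.0.16 over genes with at least 10 reads and log2 ratios with a prior count of 2. With 1 group, edgeR's quasi-likelihood test had nothing to compare, and its exact test with the common dispersion was an alternative. The binomial script was tested on simulated data. Other alternatives were DESeq2 1.42.0 size factors, other totals, filters, folds and pseudocounts.

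The members, lists and tests were chosen with earlier results of these data known. Named genes were, in each class, the 12 highest and 8 lowest by mean RPKM and every called gene, the stalk genes, Rpsa, Rps6, X-linked genes and the paralogues with their parents, and in each other list the 4 highest and every called gene; some of these genes are not reported here. Marker lists for T and NK cells and megakaryocytes summed to 11.1 and 11.8 RPKM and to 3.41 and 2.63. GC content and shared words come from GENCODE M21 transcripts, and promoters from RefSeq.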

Additional observations from a re-analysis of the deposited data

How the results depend on the processing

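Among the alternatives, 53 values stayed within the spread or count limits and 15 moved. The mitochondrial median log2 ratio between the sorts, 0.02, changed sign, to -0.05 with totals without Rn45s and -0.04 from the deposited RPKM. In CPM, which is not scaled by length, the class medians were 61.4 (cytosolic) and 7.13 (mitochondrial). The mitochondrial class mean was 2.13 RPKM, above its median. A pseudocount of 0.1 gave a class difference of 3.89 on the log2 scale. Without Rn45s the cytosolic share averaged 0.722% of reads. At 10 RPKM, 1 mitochondrial gene was detected. With at least 100 reads, called genes numbered 1 cytosolic, 2 mitochondrial and 259 in all, at a 1.5-fold limit 10, 15 and 2245, and with edgeR's exact test 0, 0 and 33; for filter and fold this follows from which genes can be called, and for edgeR from its wider estimated spread. With either sort alone, without a test, the cytosolic median was 17.7 to 23.9, the mitochondrial median 1.27 to 1.31 and the class difference 3.02 to 3.45. The median mitochondrial gene had 65.5 reads in sort 1 and 72 in sort 2, and the power to detect changes under 2-fold was not computed. Near that depth, Mrpl50 (53 and 79 reads) passed the exact binomial test at 1.54-fold (adjusted p = 0.0349). Mrpl40 (54 and 72 reads) did not pass it at 1.38-fold (adjusted p = 0.137). No paired analysis was possible because there is only 1 group.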
